A study of Rattus norvegicus with 6 samples.

Results

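ATP-binding cassette (ABC) transporters are the genes of this report, and they were taken as every gene whose symbol starts with Abc, a subfamily letter from a to g and a digit. The tables of kidney RNA listed 45 such genes among 17051 genes. A gene was tested when its count was at least 30 in at least 1 rat, which 41 of the 45 passed, among 11553 genes in all. Kidney RNA came from male Sprague Dawley rats, each rat a library of its own. The AL group (rats 61, 71 and 88) ate standard laboratory chow, and the HD group (rats 64, 67 and 69) ate the same chow mixed with an ammoniagenic amino acid preparation (3 g daily per kg of body weight), the diet that the labels call hyperammonemic. Both diets ran for 7 days, and no genetic change was introduced. Ages are not given in the sources used here.

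ABC proteins couple the binding and hydrolysis of ATP to the movement of a substrate across a membrane. In the kidney, several of them sit in the brush border of the proximal tubule and push drugs, organic anions, urate and conjugated metabolites into the urine, after uptake carriers on the blood side have brought these substrates into the cell. Others move sterols and phospholipids, import fatty acids into peroxisomes, work in the inner membrane of mitochondria, or form the regulatory part of potassium channels. The E and F subfamilies carry the ATP-binding part but no membrane part, and act on ribosomes.

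Total counts ranged from 12499945 (rat 64) to 30466461 (rat 69). Levels of 1 gene are compared between rats as normalized counts scaled to library size (CPM), and levels of different genes as TPM, which also correct for transcript length. The libraries carried the markers of kidney tubules, with proximal tubule markers summing to between 9926 and 14825 CPM in a rat, although Slc5a2, the glucose carrier of the early proximal tubule, was at no more than 2.15 CPM in any rat. Whole-tissue libraries cannot tell apart fewer cells of a type from less RNA per cell. The macrophage list was lower in the HD group in all 6 tested genes. Its summed level ranged from 40.4 to 112 CPM in the AL group and from 24.0 to 41.4 in the HD group. The thick ascending limb list was also lower in all 4 tested genes, and the lymphocyte list in all 3. The thick ascending limb sums overlapped, with 6157 to 7111 CPM in the AL group and 4162 to 6758 in the HD group. Of these genes only Slc12a1 had groups that did not overlap. The lymphocyte list summed to between 2.18 and 6.6 CPM in the AL group and between 0.0849 and 1.02 in the HD group. The podocyte list summed to between 50.4 and 119 CPM in the AL group and between 171 and 365 in the HD group. Rat 61 had less than the other AL rats of the endothelial markers (121 CPM against 279.9 and 303) and of the mural cell markers (70.3 CPM against 166 and 167), and rat 69 had more of both than the other HD rats.

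After adjustment for all tested genes, no ABC gene passed 0.05 with edgeR (quasi-likelihood), and neither did any other gene (0 of 11553, 0.0%). Of the 41 ABC genes, 7 (17.1%) had an unadjusted *P* below 0.05, against 10.6% of all tested genes. Among the 4 that were higher in the HD group (4.66% of all genes in that direction) were the P-glycoprotein genes Abcb1a and Abcb1b and the mitochondrial transporter gene Abcb8. The organic anion pump Abcc5, the calcification gene Abcc6 and the sterol exporter Abcg1 were lower (3 genes, with 5.94% of all genes). Without rat 64 of the HD group only Abcc5 was left (5.54% of all tested genes), without rat 88 of the AL group 3 genes (5.24%), and without rat 61 of the AL group there were 11 (14.9%). DESeq2 gave 5 ABC genes at an unadjusted *P* below 0.05 (11.5% of all tested genes) and 1 after adjustment, Abcc5 (1.58% of all tested genes). Abcb1b and Abcb8 were not among the 5 (unadjusted *P* = 0.0506 and 0.0537 from DESeq2). In edgeR with library size alone they were also above 0.05 (unadjusted *P* = 0.057 and 0.192). Over the 41 genes, 24 were higher and 17 lower in the HD group, beside 5928 higher and 5625 lower among all 11553 tested genes. Their median fold change on the log2 scale was 0.03, beside 0.00673 over all tested genes. When counts were scaled by library size only, the split was 16 higher and 25 lower, and the median of all tested genes moved to -0.074.

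**Figure D1:**
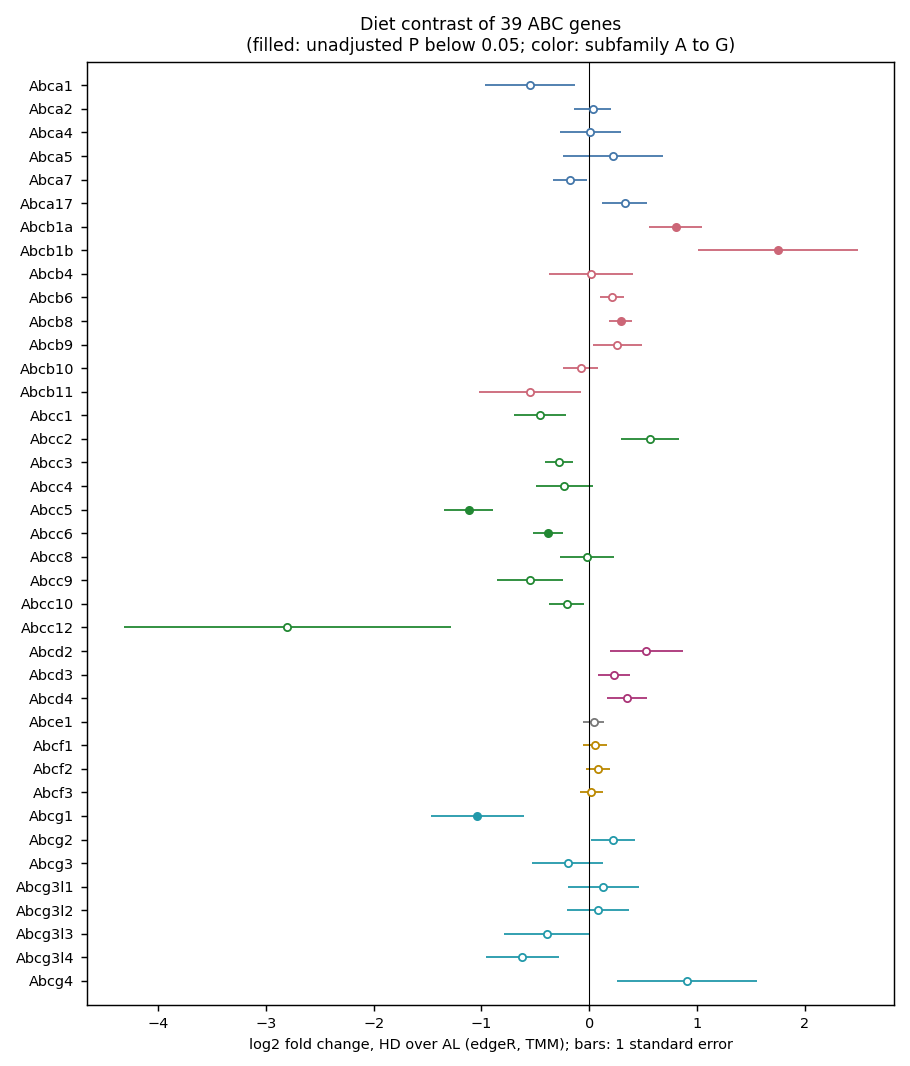
Log2 fold change between the HD and AL groups (horizontal axis, edgeR with TMM normalization) for 39 of the 41 tested ABC genes, ordered by subfamily, with bars of 1 standard error. The B subfamily lies mostly to the right of 0 and the C subfamily mostly to the left, the F subfamily sits close to 0, and the wide bar of Abcc12 belongs to a gene with counts in rat 71 almost alone.

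The sequences just upstream of 4 of the 7 genes with an unadjusted *P* below 0.05 in edgeR are printed here. These 4 are the ones that the RefSeq promoter table (build GRCr8) holds. That table matched 36 of the 45 genes. Abcc3, Abcc5 and Abcg1 were among those not matched. Each line gives the 250 bases before the RefSeq start of the gene, 5′ to 3′ on its own strand, which is the minus strand in all 4. Capitals mark the letters CCAAT (or ATTGG, its reverse complement) and GGGCGG.
Abcb1a, chr4:26397649-26397898: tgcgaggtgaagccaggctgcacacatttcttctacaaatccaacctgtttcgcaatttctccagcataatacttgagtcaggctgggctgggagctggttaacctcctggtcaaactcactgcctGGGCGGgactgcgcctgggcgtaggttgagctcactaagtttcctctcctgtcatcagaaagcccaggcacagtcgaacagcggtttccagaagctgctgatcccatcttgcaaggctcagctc
Abcb1b, chr4:26280030-26280279: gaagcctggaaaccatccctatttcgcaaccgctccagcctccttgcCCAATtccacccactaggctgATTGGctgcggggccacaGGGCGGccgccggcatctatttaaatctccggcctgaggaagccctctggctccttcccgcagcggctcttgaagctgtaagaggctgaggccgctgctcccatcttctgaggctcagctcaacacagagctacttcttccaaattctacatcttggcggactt
Abcb8, chr4:11676003-11676252: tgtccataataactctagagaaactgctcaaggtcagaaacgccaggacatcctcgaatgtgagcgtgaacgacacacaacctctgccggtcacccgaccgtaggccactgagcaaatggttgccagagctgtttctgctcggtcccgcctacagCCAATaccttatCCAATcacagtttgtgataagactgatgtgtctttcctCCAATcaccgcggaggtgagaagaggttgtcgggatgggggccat
Abcc6, chr1:105637896-105638145: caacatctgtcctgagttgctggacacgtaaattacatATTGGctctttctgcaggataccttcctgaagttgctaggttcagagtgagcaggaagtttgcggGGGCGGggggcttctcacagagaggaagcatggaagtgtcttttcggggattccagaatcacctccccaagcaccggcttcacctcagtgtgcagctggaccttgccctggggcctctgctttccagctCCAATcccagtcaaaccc

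The windows of Abcb1a and Abcb1b shared 157 of 211 aligned bases (74.4%). That of Abcb1b held CCAAT at -203 to -199 and its reverse complement at -182 to -178, counted from the start, while that of Abcb1a held neither. Both held 1 GGGCGG, at -124 to -119 in Abcb1a and at -164 to -159 in Abcb1b. Abcb8 held 3 copies of CCAAT, within the last 95 bases. No match of one motif overlapped a match of another in these windows. Searched on both strands, CCAAT was in the windows of 11 of 32 tested ABC genes (34.4%) and in 35.5% of the windows of 8522 tested genes, the background of the same length. GGGCGG was in 25 of 32 (78.1%) and in 58.5%. The core letters of the antioxidant response element, TGACNNNGC, were in 0 of 32 and in 12.6%. These are matches of letters in short windows and say nothing of binding.

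Levels spanned a wide range. Of the 45 genes, 36 averaged at least 1 TPM over the 6 rats and 15 at least 10 TPM, while Abca13 and the plant sterol exporter Abcg8 had no count in any rat. Abca15, with at most 3 counts in a rat, and Abcg5, the partner of Abcg8, with at most 5, were the other genes not tested. The highest level was that of Abcg2, the breast cancer resistance protein, an apical exporter of urate and drugs. It was at 142, 129.9 and 164 TPM in rats 61, 71 and 88 of the AL group, and at 179, 174 and 130.1 TPM in rats 64, 67 and 69 of the HD group. The next was Abcd3, the peroxisomal membrane protein PMP70, which carries long and branched fatty acids, at 124, 108 and 117 TPM in the AL rats and at 143, 123 and 127 in the HD rats. Abcg2 was above Abcd3 in each of the 6 rats, although their ranges overlapped. Abcg2 took between 15.7% and 21.6% and Abcd3 between 13.1% and 17% of the summed ABC TPM of a rat.

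Below this pair came a gap, and then genes of protein synthesis and mitochondria. Abcf3, Abcf2 and Abcf1, which act in translation, averaged 59.4 ± 1.70, 51.1 ± 2.96 and 49.0 ± 5.29 TPM (SD, *n* = 6 rats). Abcb6, a porphyrin transporter, averaged 46.7 ± 4.12 TPM and Abce1, the ribosome recycling factor, 40.0 ± 2.5. From Abcf2 down, the range of each gene overlapped with that of the next, so only the steps from Abcd3 to Abcf3 and from Abcf3 to Abcf2 were separate. Abcb8 followed at 36.2 ± 5.27 TPM, then Abca2, a lipid transporter of endosomes and lysosomes, at 31.7 ± 6.87 and Abcc6 at 23.3 ± 4.48. The summed level of all 45 genes was 809 ± 43.4 TPM in the AL group and 822 ± 17.9 among the HD rats (SD, *n* = 3 each), a difference of 13.5 TPM (two-sided exact permutation test, *P* = 0.8, with 0.1 the smallest possible value).

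**Figure D2:**
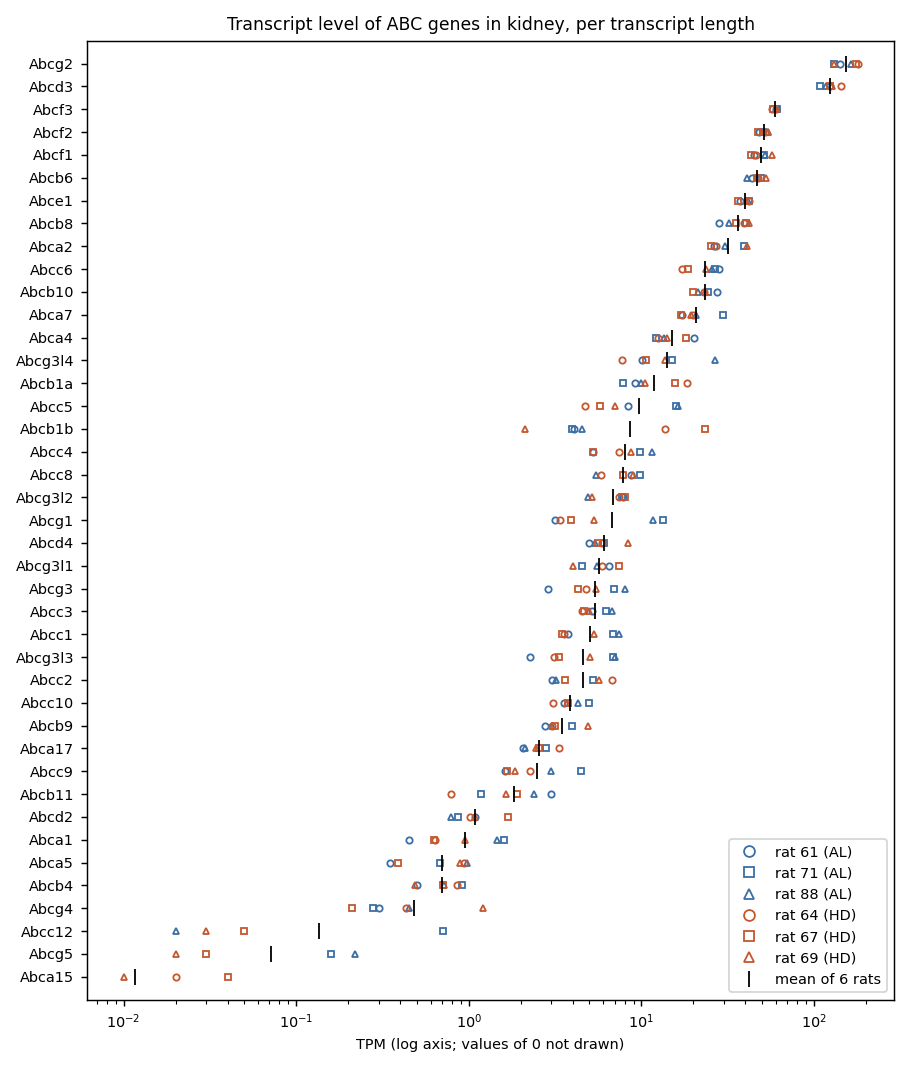
TPM of 41 of the 43 ABC genes with a count (horizontal axis, log scale) in each of the 6 rats, AL in blue and HD in orange, with the mean of the 6 rats as a black bar. Abcg2 and Abcd3 stand above the rest at 153 and 124 TPM on average, and Abcb1b shows the widest spread between HD rats among the genes above 2 TPM.

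Of the B subfamily, all 9 genes with an Abcb symbol were tested, and 7 were higher in the HD group. Among all 11553 tested genes, 5928 were higher. The median over the 9 was 0.26 on the log2 scale, or 0.18 when scaled by library size only. The B genes took between 14.6% and 17% of the summed ABC TPM in the AL rats and between 18.1% and 19.2% in the HD rats (two-sided exact permutation test, *P* = 0.1, the smallest value that 3 against 3 rats allow). Any groups of 3 rats without overlap reach that value. Of the subfamily shares only those of B and C were tested. The shares of the other subfamilies overlapped between the groups, so this *P* value followed from which shares were tested. It adds nothing to the ranges and does not set B and C apart from the others. P-glycoprotein, the multidrug exporter of the tubular brush border and of vessel walls, is encoded in rats by Abcb1a and Abcb1b, which lie next to each other on chromosome 4 of rn5 (22276390 to 22360509 and 22161935 to 22244635), each with 28 exons. Abcb1a was at 31.5, 22.3 and 30.7 CPM in AL rats 61, 71 and 88 and at 61.5, 53.5 and 32.2 CPM in HD rats 64, 67 and 69. All HD rats were above all AL rats, but rat 69 by a narrow margin. The log2 fold change of Abcb1a was 0.80 ± 0.25 (SE), a 1.74-fold difference, with an adjusted *P* value of 0.406 from edgeR and 0.126 from DESeq2. Abcb1b was at 11.0, 8.98 and 11.0 CPM in the AL rats and at 36.2, 63.4 and 5.12 in the HD rats. Rats 64 and 67 were thus far above every AL rat, while rat 69 was below all of them. Rat 69 also had the lowest summed level of proximal tubule markers, 9926 CPM against 13588 and 14825 in rats 64 and 67. Slc7a13, at 5012 CPM in rat 69 against 7186 and 9209.8, carried much of that sum, while Cubn was at 384 CPM in rat 69 against 331 in both others. The part of these markers in the result was not tested. The log2 fold change of Abcb1b was 1.75 ± 0.74 (SE, adjusted *P* = 0.466 from edgeR), and it was 2.28 without rat 69 and 0.98 without rat 67.

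The share of Abcb1b in the summed CPM of the pair was 25.9%, 28.7% and 26.3% in the AL rats and 37.0%, 54.2% and 13.7% in the HD rats. The AL rats were within a few percent of each other and the HD rats lay on both sides of them (a difference of means of 8.01 percentage points, two-sided exact permutation test, *P* = 0.7). The pair shares sequence, so that reads could be assigned to either gene. The interval that RSEM gives for the level was 1.06 times as wide as counting error alone for Abcb1b and 1.03 times for Abcb1a, as medians over the rats. Next to them on the chromosome, from 22071627 to 22128781, lies Abcb4, which moves phosphatidylcholine into bile. It was low in all rats, between 1.18 and 2.29 CPM, and its log2 fold change was 0.02 ± 0.39 (SE).

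Mitochondrial members of the subfamily include Abcb8 and Abcb10, and Abcb6 is found on mitochondria and other membranes. Abcb8 was at 41.8, 49.7 and 42.7 CPM in the AL rats and at 56.9, 51.8 and 55.3 in the HD rats, a log2 fold change of 0.29 ± 0.11 (SE, adjusted *P* = 0.433). For Abcb6 the values were 86.1, 80.9 and 72.1 CPM and 91.8, 91.1 and 92.8 CPM, a log2 fold change of 0.21 ± 0.11 (SE, adjusted *P* = 0.551). In both genes every HD rat was above every AL rat, by little. The groups overlapped in both when levels were taken as TPM or as counts scaled by library size only. Abcb10, needed for heme synthesis, had the opposite sign at -0.08 ± 0.16 (SE), with rat 61 the highest of all at 65.5 CPM.

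Of 41 ABC genes, 8 had AL and HD rats that did not overlap in normalized CPM (19.5%), against 14.3% of all tested genes. Among the 5 with the HD group higher (7.25% of all genes) were Abcb1a, Abcb6, Abcb8 and Abcd4, and the 3 with the HD group lower (7.01%) were Abcc3, Abcc5 and Abcc6. In TPM, 4 of these remained, Abcb1a, Abcc3, Abcc5 and Abcc6 (12.7% of all genes did not overlap), and the same 4 remained in counts scaled by library size only (13.6%).

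**Figure D3:**
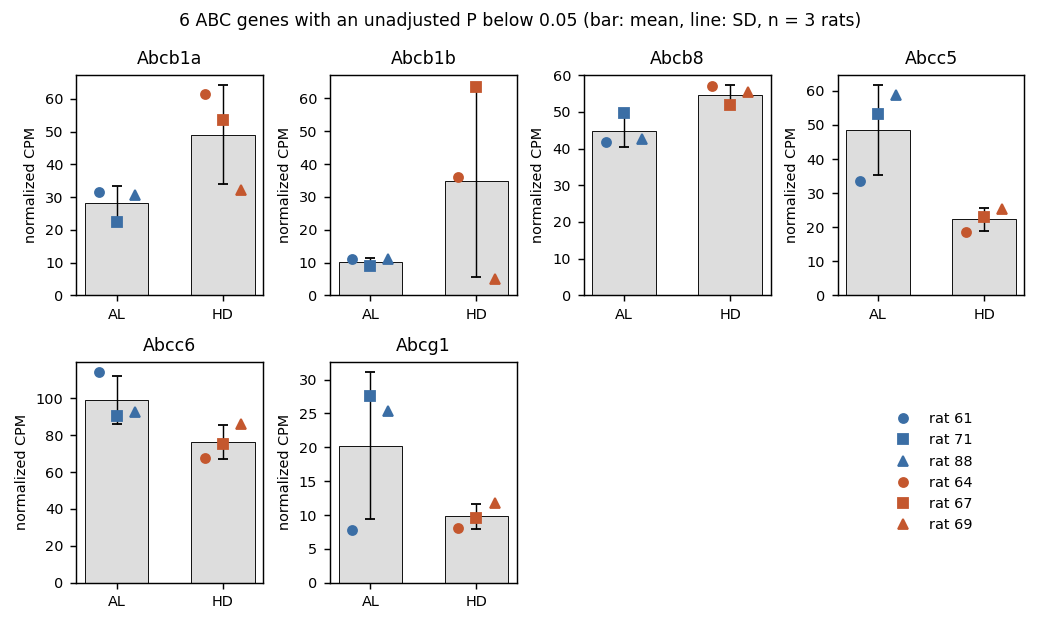
Normalized CPM (vertical axes, from 0) of 6 of the 7 ABC genes with an unadjusted *P* value below 0.05, with a point for each rat, bars for group means and lines for the SD over 3 rats. Abcb1b is high in HD rats 64 and 67 and lowest in HD rat 69, and Abcg1 is high in AL rats 71 and 88 while AL rat 61 sits at the level of the HD rats.

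The remaining genes of the B subfamily were low. Abcb9, a lysosomal peptide transporter, was between 6.22 and 10.0 CPM, with a log2 fold change of 0.26 ± 0.23 (SE). Abcb11, the bile salt export pump of the liver, was between 3.38 and 10.3 CPM in the AL rats and between 2.63 and 6.50 in the HD rats, and its log2 fold change of -0.55 ± 0.47 (SE) was within the spread of either group.

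The C subfamily holds the multidrug resistance-associated proteins (MRP) and the sulfonylurea receptors. Of its 10 genes with an Abcc symbol, all tested, 9 were lower in the HD group, beside 5625 of all 11553 tested genes. The median over the 10 was -0.33 on the log2 scale. One of the 9, Abcc12, passed the minimum through AL rat 71 alone, with 34 counts there and at most 3 in any other rat. The median was -0.30 with a count of at least 10 required in every rat, which left Abcc12 out, and between -0.40 and -0.22 over the other settings and with each rat left out. The C genes took between 8.91% and 10.9% of the summed ABC TPM in the AL rats and between 6.57% and 8.52% in the HD rats (two-sided exact permutation test, *P* = 0.1, again the smallest possible value). Abcc5 (MRP5), an exporter of cyclic nucleotides and other organic anions on chromosome 11 from 87460863 to 87554517, had an unadjusted *P* below 0.05 in edgeR and DESeq2, under every scaling and with any rat left out. It was at 33.6, 53.1 and 58.8 CPM in AL rats 61, 71 and 88 and at 18.6, 22.9 and 25.4 CPM in HD rats 64, 67 and 69. Every HD rat was below every AL rat, and rat 61 was the nearest to the HD group. The log2 fold change of Abcc5 was -1.12 ± 0.23 (SE), a 2.17-fold lower level, and ranged from -1.32 to -0.95 with each rat left out. Its adjusted *P* value was 0.338 in edgeR, where it was the smallest of any ABC gene, and 0.00232 in DESeq2.

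Abcc6, on chromosome 1 from 103042750 to 103096453, serves the release of ATP from cells, and its loss leads to calcification of soft tissues. It was at 114, 90.3 and 92.4 CPM in the AL rats and at 67.4, 75.3 and 85.9 in the HD rats. All HD rats were below all AL rats, with a log2 fold change of -0.38 ± 0.14 (SE, adjusted *P* = 0.426). Abcc3 (MRP3), a basolateral exporter of glucuronides, was at 18.0, 18.2 and 20.9 CPM in the AL rats and at 15.4, 16.0 and 15.6 in the HD rats. The difference was small, a log2 fold change of -0.28 ± 0.13 (SE, adjusted *P* = 0.513), and the HD rats were close to each other.

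The apical exporters of organic anions did not share a direction. Abcc2 (MRP2), which sends glutathione and glucuronide conjugates into the urine, was the only C gene above 0. It was at 10.5, 15 and 9.93 CPM in the AL rats and at 22.7, 12.4 and 17.5 in the HD rats, a log2 fold change of 0.56 ± 0.27 (SE, adjusted *P* = 0.506), and the groups overlapped through rats 71 and 67. Abcc4 (MRP4), which exports cyclic nucleotides and urate, ranged from 16.2 to 31.6 CPM in the AL group and from 16.1 to 24.0 in the HD group, with a log2 fold change of -0.23 ± 0.26 (SE). For Abcg2, the third of these apical exporters, the difference on the log2 scale was 0.22 ± 0.20 (SE, adjusted *P* = 0.755), and rat 69 at 175 CPM was below AL rats 61 and 88, at 214 and 221 CPM.

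Uptake carriers on the blood side, such as Slc22a6 and Slc22a8, supply such pumps. Of 4 listed organic anion carriers, Slc22a6, Slc22a8 and Slco4c1 had an unadjusted *P* value below 0.05 in edgeR, each with the HD group higher. Of all tested genes, 10.6% had such a value and 4.66% had it with the HD group higher. Slc22a8, the organic anion transporter OAT3, was at 14.7, 14.8 and 17.2 CPM in the AL rats and at 247, 105 and 77.6 in the HD rats (log2 fold change 3.20, adjusted *P* = 0.254 from edgeR and 1.36e-13 from DESeq2). Slc22a6 (OAT1) had a log2 fold change of 1.07 ± 0.24 (SE, adjusted *P* = 0.368 from edgeR and 0.00302 from DESeq2), and Slco4c1 one of 0.97 ± 0.29 (SE, 0.402 and 0.0925). Slc22a7 (OAT2), the remaining listed carrier, which is not placed on either side of the cell here, was at 0.11 ± 0.16 (SE) with overlapping groups. The apical scaffold proteins Pdzk1, Slc9a3r1, Slc9a3r2 and Ezr, to which some of these exporters bind, were all above 0 with a median of 0.23 on the log2 scale, and 0 of 4 had an unadjusted *P* value below 0.05 in edgeR.

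Abcc1 (MRP1), a basolateral exporter of glutathione conjugates and leukotrienes, was at 13.2, 19.8 and 23.0 CPM in the AL rats and at 12.1, 11.9 and 16.6 in the HD rats, a log2 fold change of -0.46 ± 0.24 (SE). Abcc10 (MRP7) was between 12.2 and 14.1 CPM in the AL group and between 10.2 and 12.6 in the HD group. Of the sulfonylurea receptors, which surround the pores Kcnj8 and Kcnj11 in ATP-sensitive potassium channels, Abcc9 (SUR2) was at 7.15, 16.5 and 11.9 CPM in the AL rats and at 9.76, 7.29 and 7.35 in the HD rats (log2 fold change -0.55 ± 0.31 SE). Abcc8 (SUR1) had a log2 fold change of -0.02 ± 0.25 (SE). Kcnj8 was at 2.30, 4.38 and 3.97 CPM in the AL rats and 0.424, 1.40 and 3.01 in the HD rats,, so that rat 69 overlapped with the AL group. Kcnj11 overlapped too, with 1.78 to 6.04 CPM over the 6 rats.

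Rat 61 was the lowest of the AL rats for 7 of the 10 C genes, among them Abcc1, Abcc4, Abcc5 and Abcc9. Another was Abcc12, with 0 counts in rat 61. Over all 41 tested ABC genes, rat 61 was the lowest AL rat for 18 and the highest for 14. Among the HD rats, rat 64 was the lowest for 6 of the 10 C genes. The share over all tested genes was not counted. Rat 61 also had the lowest sum of endothelial, mural cell and macrophage markers in its group, and the part of these markers in the result was not tested. Without rat 61 the median of the C subfamily was -0.38 on the log2 scale.

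Abca1 and Abcg1, which export sterols and phospholipids, also divided the AL rats. Abca1, which loads cholesterol onto apolipoprotein A-I, was at 2.14, 6.37 and 6.15 CPM in AL rats 61, 71 and 88 and at 2.97, 3 and 4.06 in HD rats 64, 67 and 69. Abcg1, which passes sterol on to mature lipoprotein particles, was at 7.78, 27.5 and 25.4 CPM in the AL rats and at 8.15, 9.54 and 11.8 in the HD rats. For both genes rats 71 and 88 were above all HD rats and rat 61 was below all of them. The log2 fold change of Abcg1 was -1.04 ± 0.43 (SE, adjusted *P* = 0.462 from edgeR), and -1.42 without rat 61. That of Abca1 was -0.55 ± 0.42 (SE), and -0.90 without rat 61. Both genes are known to be active in macrophages, and the macrophage markers summed to 40.4 CPM in rat 61 against 112 and 79.6 in rats 71 and 88, and to 24.0, 28.2 and 41.4 in the HD rats. The part of macrophage content in the Abca1 and Abcg1 values was not tested.

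**Figure D4:**
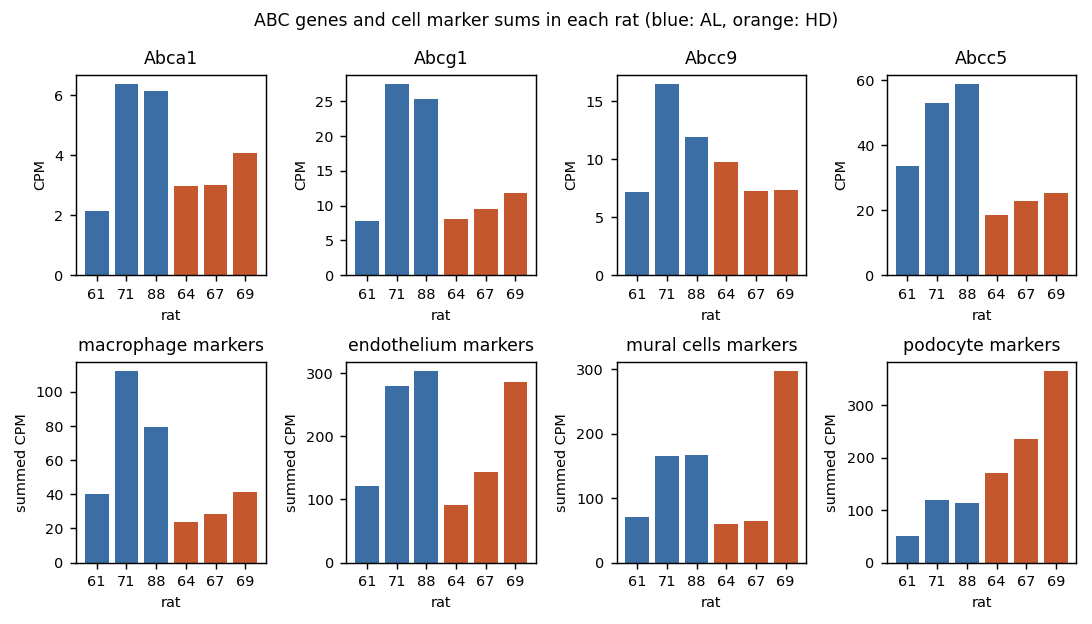
CPM of Abca1, Abcg1, Abcc9 and Abcc5 (top row) and summed CPM of 4 lists of cell markers (bottom row) in each rat, with all vertical axes from 0. Abca1, Abcg1 and the macrophage markers are high in AL rats 71 and 88, and among the HD rats Abca1, Abcg1, Abcc5 and all 4 marker lists are highest in rat 69.

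Genes around sterol export were split. Of 6 tested lipid acceptors and partners, Lcat, which esterifies cholesterol in plasma, was lower in every HD rat than in every AL rat (log2 fold change -0.93 ± 0.29 SE, adjusted *P* = 0.406), and Pltp, the phospholipid transfer protein, had a log2 fold change of 1.44 ± 0.54 (SE, adjusted *P* = 0.425) with overlapping groups. Apoe was at 41.8, 129 and 78.8 CPM in the AL rats and at 30.7, 30.7 and 72.3 in the HD rats. The liver X receptors Nr1h3 and Nr1h2, which drive transcription of Abca1 and Abcg1, had log2 fold changes of 0.19 ± 0.14 (SE) and 0.04 ± 0.10 (SE).

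The A subfamily had a median of 0.02 on the log2 scale over the 6 tested genes (-0.05 when scaled by library size only) and none with an unadjusted *P* value below 0.05 in edgeR. Abca2 was at 150.1, 186 and 154 CPM in the AL rats and at 150.1, 142 and 207 in the HD rats, a log2 fold change of 0.03 ± 0.17 (SE). Abca7, a phospholipid transporter linked to phagocytosis, was between 78.5 and 114 CPM in the AL group and between 76.8 and 89.3 in the HD group. Abca4, known as the retinoid flippase of photoreceptors, was nonetheless at 15 ± 3.27 TPM (SD, *n* = 6 rats) in these kidneys, with 101 CPM in rat 61 and 90.2 in rat 67 above the other rats at 50.7 to 63.1. Its log2 fold change was 0.01 ± 0.28 (SE). Abca5 was at most 3.31 CPM, with a difference of 0.22 ± 0.46 (SE) on the log2 scale. Abca17 was between 7.08 and 8.70 CPM in the AL rats and between 8.22 and 12.1 in the HD rats, and its difference was 0.33 ± 0.21 (SE) on the log2 scale.

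All 4 genes of the peroxisomal and lysosomal D subfamily were above 0, with a median of 0.29 on the log2 scale, or 0.22 when scaled by library size only. Abcd3 was at 274, 199.5 and 230.5 CPM in the AL rats and at 308, 269 and 250.4 in the HD rats, with rat 61 above 2 of the HD rats and a log2 fold change of 0.23 ± 0.15 (SE, adjusted *P* = 0.643). Abcd4, which takes part in the release of vitamin B12 from lysosomes, was at 8.10, 8.26 and 7.81 CPM in the AL rats and at 9.42, 9.04 and 12.2 in the HD rats, a log2 fold change of 0.35 ± 0.19 (SE, adjusted *P* = 0.581). These groups did not overlap in normalized CPM but did in TPM. Abcd2, a carrier of very long chain fatty acids, was low, with 6.50 CPM in rat 67 against 2.71 to 4.21 in the other rats. Pex3, Pex16 and Pex19, which place such proteins in the peroxisome, had a median of 0.22 on the log2 scale, and 0 of 3 had an unadjusted *P* value below 0.05 in edgeR.

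The genes without a membrane part showed little difference by diet. Abce1 was at 90.0, 84.7 and 89.4 CPM in the AL rats and at 98.9, 87.2 and 86.5 in the HD rats. Abcf1 was at 96.8, 92.2 and 99.6 CPM and at 96.3, 92.2 and 110.0 CPM. Abcf2 was at 85.8, 75.2 and 86.2 CPM in the AL rats and at 90.7, 83.9 and 86.6 in the HD rats. In each of these genes the groups overlapped, and the rats differed by far less than in Abcb1b or Abcg1. Abcf3 was at 105, 89.4 and 93.3 CPM in the AL rats and at 96.9, 100.4 and 94.7 in the HD rats. The log2 fold changes of the 4 genes were between 0.02 and 0.08, with standard errors of 0.10 or 0.11. When scaled by library size only, those of Abce1, Abcf1 and Abcf3 turned to -0.04, -0.03 and -0.06. Of their 6 tested partners in translation, 3 were above and 3 below 0.

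**Figure D5:**
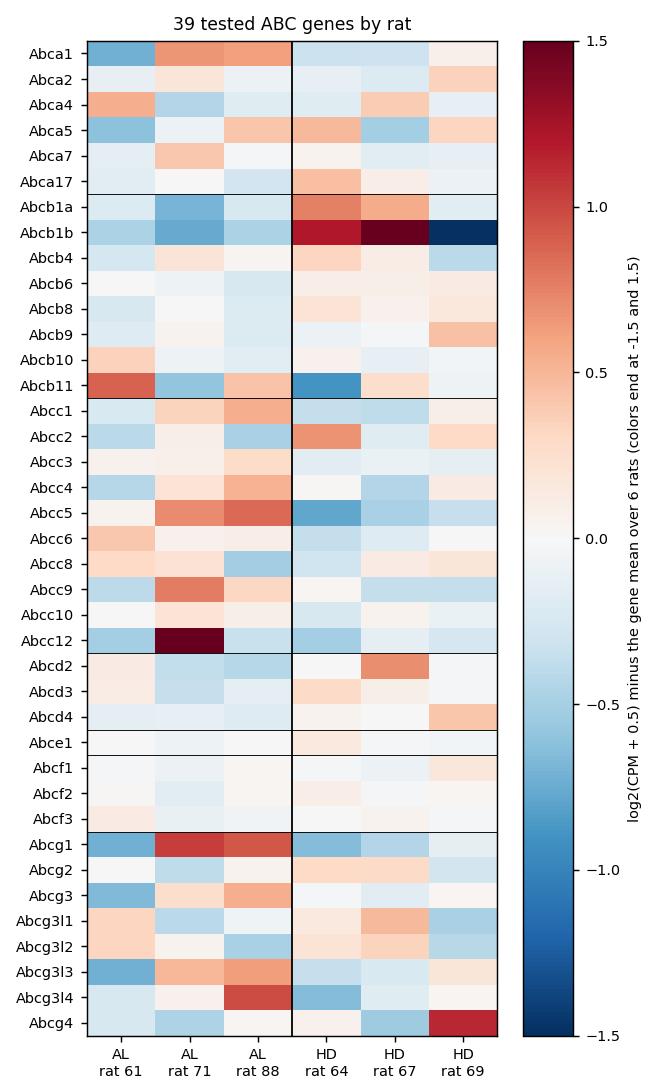
Difference between each rat's log2(CPM + 0.5) and the mean of the gene over 6 rats (color, from -1.5 to 1.5) for 39 of the 41 tested ABC genes in rows by subfamily, with the AL rats left and the HD rats right of the line. The E and F rows are pale in every rat, Abcb1b is split between rats 64 and 67 and rat 69, and Abca1 and Abcg1 divide rat 61 from rats 71 and 88.

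In the G subfamily 4 of the 8 tested genes were higher and 4 lower, and their median was -0.06 on the log2 scale. The 4 higher include Abcg4, which passed the minimum through HD rat 69 alone. The rodent Abcg3 genes, relatives of Abcg2, lie together on chromosome 14 of rn5, and the annotated spans of Abcg3l2 and Abcg3l4, both on the minus strand, share their 3′ end at 5556777. Reads of these copies are hard to assign. The RSEM interval of Abcg3l2 was 2.51 times as wide as counting error, and that of Abcg3l4 was 1.97 times as wide, while it was 1.00 times for Abcg3 and Abcg3l3. Abcg3l4 was at 18.9, 23.3 and 44.6 CPM in the AL rats and at 14.0, 19.6 and 22.8 in the HD rats, a log2 fold change of -0.62 ± 0.34 (SE), and -0.16 without rat 88. Abcg4, a sterol exporter best known from brain, had at most 16 counts in 5 rats and 89 in rat 69. Its log2 fold change was 0.91 ± 0.65 (SE), and -0.02 without rat 69.

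Among 13 tested transcription factors known to act on ABC genes, 4 had an unadjusted *P* value below 0.05 in edgeR, all higher in the HD group, beside 10.6% of all tested genes in either direction and 4.66% in that one. Nr1i2, the pregnane X receptor and an inducer of P-glycoprotein genes, was at 13.6, 12.2 and 11.5 CPM in the AL rats and at 16.4, 16.8 and 16.8 in the HD rats, a log2 fold change of 0.42 ± 0.14 (SE, adjusted *P* = 0.406). The HD rats did not overlap with the AL rats and were nearly equal. Hnf4a, a driver of proximal tubule genes, was also higher in every HD rat (log2 fold change 0.33 ± 0.12 SE). The bile acid receptor Nr1h4 (0.58 ± 0.20 SE) and Ppara (0.81 ± 0.33 SE) had overlapping groups. Nfe2l2, which acts through the antioxidant response element, had a log2 fold change of 0.12 ± 0.16 (SE).

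None of the 3 ABC genes that carry other symbols, which the subfamily counts and shares above leave out, had an unadjusted *P* below 0.05 in edgeR. The chloride channel Cftr was at 51.1 CPM in rat 61 against 12.8 to 29.5 in the other 5 rats, and the peptide transporters Tap1 and Tap2 had log2 fold changes of -0.14 ± 0.19 (SE) and 0.14 ± 0.20 (SE). Of 6 heme and iron-sulfur partners of the mitochondrial transporters, all 6 were above 0 with a median of 0.23 on the log2 scale. Only Slc25a37, a mitochondrial iron importer that binds Abcb10, had an unadjusted *P* value below 0.05, at 8.18, 7.26 and 8.34 CPM in the AL rats and 12.9, 9.74 and 10.1 in the HD rats (adjusted *P* = 0.466).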

How the data were processed

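Total RNA of 6 kidneys was poly(A)-selected and sequenced as single-end reads. The authors quantified transcripts with RSEM 1.1.15 at default parameters (UCSC gene models, rn5). For each rat the authors deposited estimated counts (expected counts), made by RSEM and not normalized, with their posterior means, TPM values scaled by RSEM, and an abundance score with interval bounds, whose level is not given in the sources used here. RNA of the study's other assays came from part of a kidney, and the part sequenced is not stated.

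Transcript counts were added up by gene and rounded, and a gene entered the tests when 1 or more rats had 30 counts. The groups, from the diet in the labels, were compared with edgeR 4.0.16 (quasi-likelihood, TMM, diet as the only factor) in R 4.3.3, with Benjamini-Hochberg adjustment over all tested genes and a threshold of 0.05. The standard error was the absolute log2 fold change divided by the square root of *F*. DESeq2 1.42.0, the study's tool, was an alternative, beside RLE normalization, library size alone, other count minimums, posterior mean counts, a robust fit and leaving out each rat. RSEM intervals were compared with counting error as their half-width over that of a Poisson interval (1.96 SD). Upstream windows were RefSeq's (GRCr8), and no coordinates were converted.

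Members and gene lists were chosen with earlier results of these data known. Values in every rat are given for members with an unadjusted *P* value below 0.05, without overlap between groups, or among the 10 highest in TPM. They are also given for the pair Abcb1a and Abcb1b, and, outside this rule, for Abca1, Abcc1, Abcc2, Abcc9 and Abcg3l4. Other members are described by role. A few members are counted but neither named nor drawn. *P* values measure the spread between 3 rats per group. Figures used Python 3.11.15 and matplotlib 3.10.9.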

Additional observations from a re-analysis of the deposited data

How the results depend on the processing

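DESeq2 called 1 ABC gene after adjustment (Abcc5, log2 fold change -1.13, adjusted *P* = 0.00232) where edgeR gave 0, and edgeR with RLE normalization, library size alone, other count minimums, posterior mean counts, a robust fit or any rat left out gave 0 each. With each rat left out, the number of ABC genes at an unadjusted *P* value below 0.05 ranged from 1 to 11, while the share of all tested genes ranged from 5.24% to 15.5%, and the median log2 fold change from -0.0308 to 0.091. Library size alone moved that median from 0.0261 to -0.0499, while the median of all tested genes moved from 0.00673 to -0.074. It also turned the sign of Abca2 (-0.05), Abce1 (-0.04), Abcf1 (-0.03) and Abcf3 (-0.06). With each rat left out, these 4 ranged from -0.16 to 0.13, from -0.02 to 0.09, from -0.02 to 0.10 and from -0.03 to 0.09. The number of ABC genes whose rats did not overlap, 8 in normalized CPM, was 4 in TPM and 4 in counts scaled by library size only, both chosen after seeing the data. The causes were not tested. No paired analysis was possible because the rats carry individual numbers and the labels tie no AL rat to an HD rat. Genes under about 5 CPM, such as Abcb4, Abca5 and Abcg4, rest on few counts, so their values are less precise.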
